A study of Mus musculus with 20 samples.

Results

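The genes described here are the interferon-induced genes, the interferon regulatory factors (IRFs) and the STAT transcription factors, together with the interferons and their receptors, as measured in mouse liver. They were taken by name: every probe whose single gene symbol in the platform's annotation began with Ifi, Ifit, Ifn, Irf and a digit, Isg, Oas, Stat and a digit, Gbp, Irgm, Iigp, Igtp, Rsad2 or Usp18, or was Mx1 or Mx2, with Gbp1 and Gbp2b left out. This gave 65 genes from 78 probes, of 11647 named genes and 21556 features (genes and unnamed single probes) on the array. Of the 65, 56 had 1 probe and 9 had more, which were averaged.

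Interferons are secreted proteins that warn cells of infection. Type I interferons (alpha and beta) bind the receptor chains Ifnar1 and Ifnar2, and interferon gamma, made mostly by T and NK lymphocytes, binds Ifngr1 and Ifngr2. Both receptors signal through Janus kinases to STAT proteins: complexes that hold STAT2 and IRF9 bind the interferon-stimulated response element (ISRE), and STAT dimers bind the gamma-activated sequence (GAS). The induced genes code for antiviral effectors, for GTPases that attack intracellular pathogens and for the machinery of antigen presentation. In the liver, hepatocytes, Kupffer cells (the resident macrophages), endothelial cells and lymphocytes all respond to interferon, so a whole-tissue value mixes them.

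The livers came from 20 C57BL/6J mice of the FCG model (core genotypes), in which the sex chromosomes and the type of gonad are uncoupled. The Y chromosome lacks the testis-determining gene Sry (written Y-), and an autosomal Sry transgene makes testes in the animals that carry it. The 4 groups, each of 5 animals, were XX Sry and XY-Sry (gonadal males, with the transgene) and XX and XY- (gonadal females, without it). All were gonadectomized at 8 weeks, ate chow with 4% fat, and were killed at 12 weeks after a 12 h fast, so the gonads were absent when the livers were taken in every group. Each liver (Cy5 dye) was hybridised against a common pool of liver RNA (Cy3 dye). The pool is described in the labels both as RNA of 17 mice and as equal RNA of every sample. Values are log2 ratios of liver over pool: 0 means the level of the pool and 1 a doubling. A ratio gives no level, so genes were compared across livers and never with each other, and the presence of liver markers as such could not be read. The design compares gonadal males with gonadal females, which cannot be told apart from the presence of the transgene, and XX with XY- livers.

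Some arrays stood apart. The SD of all log2 ratios on an array ran from 0.175 to 0.341, and the array medians from -0.0107 to 0.0155 on the log10 scale of the deposited values. The Y-linked genes Eif2s3y and Kdm5d checked the labels: the library labelled XY- 30 had log2 ratios of -3.90 and -3.16, as the XX livers did, while the other 9 XY- and XY-Sry arrays were above 0. For the 65 genes, 2 arrays were far above the rest. The mean log2 ratio over the 65 genes was 0.60 on XX 6 and 0.31 on XY- 12, against -0.26 to 0.04 on the other 18 arrays. The highest value of all 20 arrays was on XX 6 for 30 of the 65 genes, though XX 6 held the highest value of 6.88% of all features, and on XY- 12 for 13 genes, against 8.52% of features. The 65 genes also spread more across the 20 arrays than the array as a whole, with a median SD of 0.29 against 0.16.

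**Figure D1:**
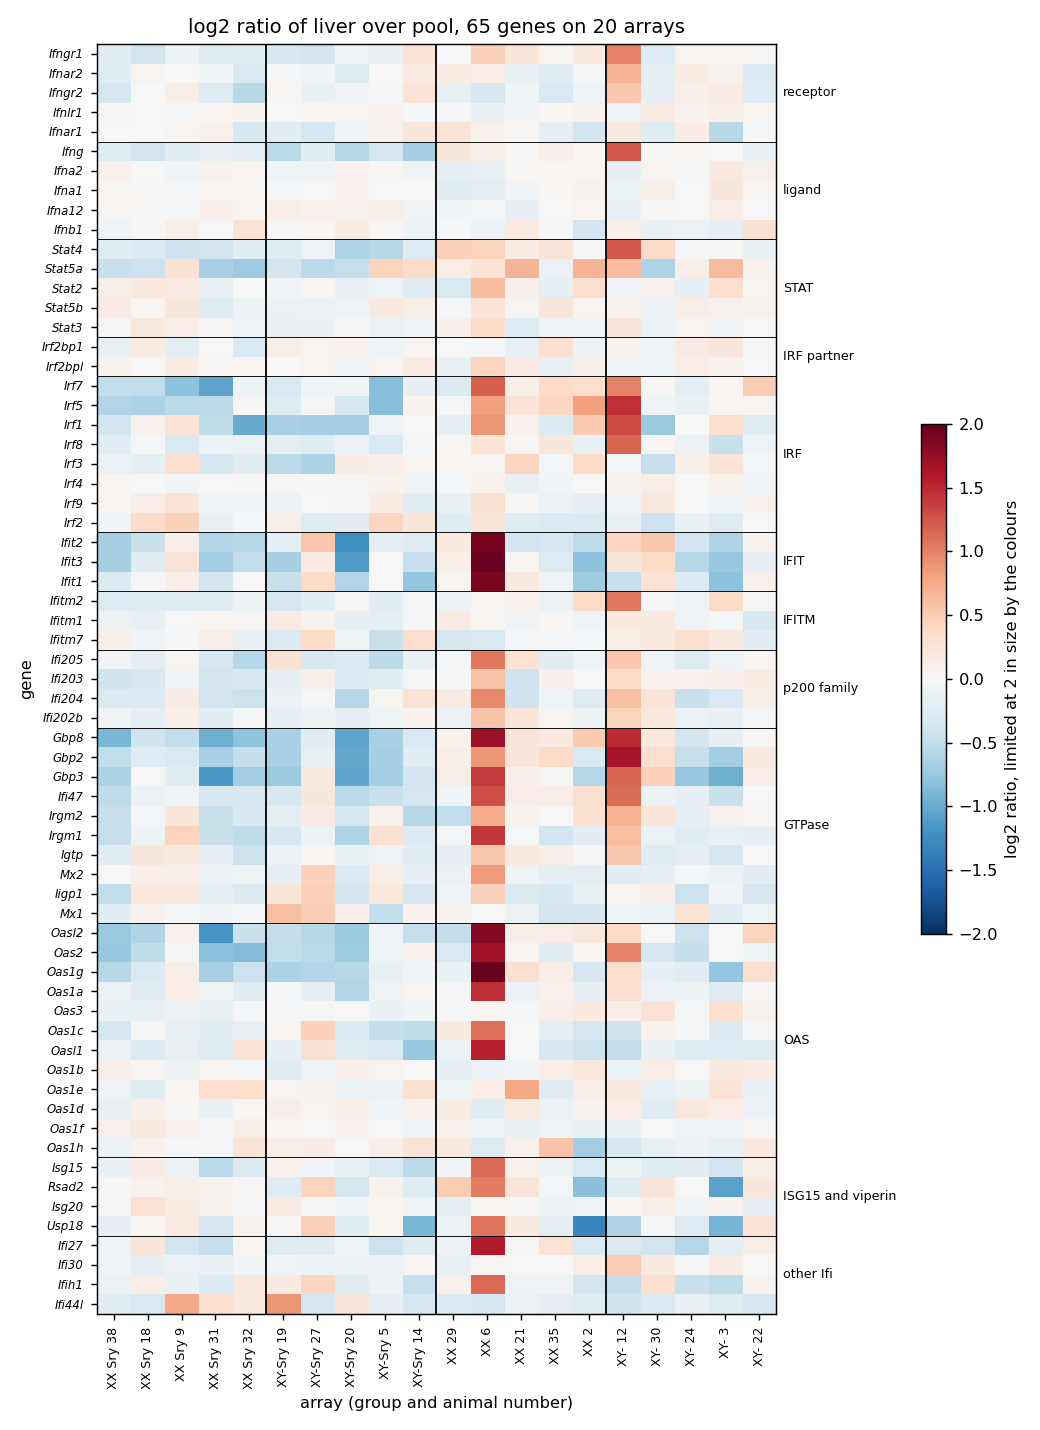
Log2 ratio of liver over pool for the 65 genes (rows, by role) on the 20 arrays (columns, by group and animal number), with colours limited at 2 in size. The columns XX 6 and XY- 12 are red over many rows, in different rows of the IFIT, ISG15 and viperin, and receptor blocks.

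The liver of XX 6 and that of XY- 12 were high in partly different members. XX 6 was above all of the other 18 arrays in 35 genes and XY- 12 in 27, of which 19 were shared. Thus 16 were high only on XX 6 and 8 only on XY- 12. Both arrays were picked for their high mean over these same genes, and the share over all features was not counted. Of all features, 1.2% had a log2 ratio above 1 on XX 6 and 1.89% on XY- 12. The other 18 arrays had 0.0371% to 0.418%. The counts are therefore a description and not a test. On XX 6 the IFIT genes, which code for proteins that bind foreign RNA, had a mean log2 ratio of 1.93, the OAS genes (oligoadenylate synthetases, which switch on RNase L when they meet double-stranded RNA) 0.78, and the group of Isg15, Isg20, Rsad2 and Usp18 0.82. On XY- 12 the same means were 0.07, 0.09 and -0.22. The receptors ran the other way, with a mean of 0.05 on XX 6 and 0.47 on XY- 12. By mean the GTPases were high on both, at 0.93 and 0.70, and so was the p200 family of nuclear DNA-binding proteins, at 0.79 and 0.50. Families were not uniform. On XY- 12, Oas2, Oas1g and Oas1a were above the other 18 arrays, at 0.99, 0.35 and 0.33. The GTPases Mx1, Mx2 and Iigp1 were at -0.06, -0.20 and 0.05 there.

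Single genes show the split. Interferon gamma itself (Ifng) was 0.12 on XX 6 and 1.25 on XY- 12. Irf8, a factor of macrophages and dendritic cells, was 0.28 and 1.15, and Ifngr1 was 0.46 and 0.999. Ifit1 was 1.89 on XX 6 and -0.46 on XY- 12, Isg15, a ubiquitin-like modifier, 1.13 and -0.10, and Usp18, the protease that removes it, 1.08 and -0.59. The GTPase Gbp8 was 1.73 and 1.49. These arrays also differed in markers of other cells: the mean over 9 neutrophil genes was 2.15 on XY- 12 and -0.31 on XX 6, against -1.44 to -0.76 on the other arrays, and the mean over 15 Kupffer cell and macrophage genes was 1.59 on XY- 12 and 0.48 on XX 6. The part of these cells in the values was not tested.

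**Figure D2:**
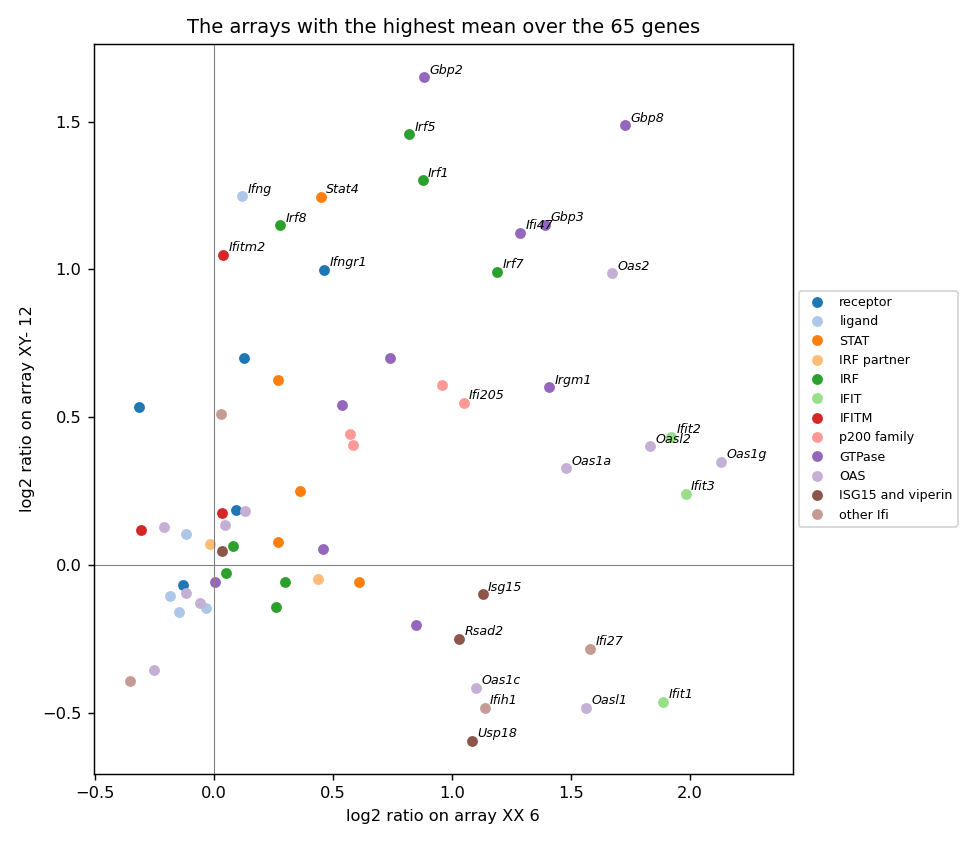
Log2 ratio on array XX 6 (horizontal) and on array XY- 12 (vertical) for each of the 65 genes, coloured by role. The IFIT genes, Oasl1, Usp18 and Ifi27 lie at 1.08 to 1.98 on XX 6 and at 0.43 or less on XY- 12, and Ifng, Irf8, Stat4 and Ifitm2 lie at 1.05 or more on XY- 12 and at 0.45 or less on XX 6.

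Promoters were searched for both elements, and 8 that hold a match are shown. Their genes had their top value on XX 6 (Ifit1, Ifit3, Isg15) or were high on both arrays (Irgm2, Igtp, Irf1). Stat4 and Oas3 were lower in gonadal males. Genes of these kinds without a match are not shown. Such were Oasl2 and Oasl1 (1.83 and 1.56 on XX 6) and Ifi47 (1.29 on XX 6 and 1.12 on XY- 12). Promoter windows (250 bases before to 50 after a start site, RefSeq, GRCm38.p6) were found for 54 of the 65 genes. The ISRE core was searched as GAAA, any 2 bases and GAAA on both strands (TTTC, any 2 bases and TTTC on the other) and the GAS element as TTCNNNGAA, which reads alike on both. The ISRE core was present in 23 of the 54 genes (42.6%) and in 3.99% of all 27025 genes of the table. The GAS pattern was present in 15 of 54 (27.8%) and in 9.55% of all genes. By window, 35.4% of the members' windows held the ISRE core, against 3.44% of all windows, and 23.1% held the GAS pattern, against 8.30%. The stretches below are the 160 bases before a start site, 5′ to 3′ in the direction of the gene, with matches in capitals. Where a gene had more than 1 window, a window with a match is shown.
Ifit1 (chr19:34640729-34640888, plus strand): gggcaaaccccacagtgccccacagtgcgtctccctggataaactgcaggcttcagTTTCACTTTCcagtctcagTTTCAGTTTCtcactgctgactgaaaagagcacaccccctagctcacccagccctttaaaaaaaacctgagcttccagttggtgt
Ifit3 (chr19:34583369-34583528, plus strand): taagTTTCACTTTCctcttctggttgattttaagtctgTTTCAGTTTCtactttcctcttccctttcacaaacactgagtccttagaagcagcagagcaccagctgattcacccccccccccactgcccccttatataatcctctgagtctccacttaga
Isg15 (chr4:156200819-156200978, minus strand): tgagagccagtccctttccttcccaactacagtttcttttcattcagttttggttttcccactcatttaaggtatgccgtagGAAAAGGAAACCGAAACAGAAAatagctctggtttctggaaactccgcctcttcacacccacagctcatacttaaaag
Irgm2 (chr11:58214817-58214976, plus strand): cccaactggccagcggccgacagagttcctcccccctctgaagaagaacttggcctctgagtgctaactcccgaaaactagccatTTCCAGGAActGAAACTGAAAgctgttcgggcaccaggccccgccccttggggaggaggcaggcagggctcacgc
Igtp (chr11:58199396-58199555, plus strand): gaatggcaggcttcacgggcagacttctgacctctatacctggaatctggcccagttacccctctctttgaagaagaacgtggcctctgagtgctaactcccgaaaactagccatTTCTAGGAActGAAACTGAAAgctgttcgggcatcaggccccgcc
Irf1 (chr11:53769854-53770013, plus strand): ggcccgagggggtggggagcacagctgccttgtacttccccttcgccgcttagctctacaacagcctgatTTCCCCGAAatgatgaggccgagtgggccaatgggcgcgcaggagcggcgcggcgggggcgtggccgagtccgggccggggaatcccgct
Stat4 (chr1:52008080-52008239, plus strand): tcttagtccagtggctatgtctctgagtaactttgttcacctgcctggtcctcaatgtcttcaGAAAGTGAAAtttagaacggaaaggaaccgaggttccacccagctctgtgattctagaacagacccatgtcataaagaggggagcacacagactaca
Oas3 (chr5:120777660-120777819, minus strand): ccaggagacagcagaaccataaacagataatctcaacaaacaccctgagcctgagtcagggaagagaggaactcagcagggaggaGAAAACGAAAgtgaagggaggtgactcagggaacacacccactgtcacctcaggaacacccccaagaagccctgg
Ifit1 and Ifit3 each carry 2 copies of the ISRE core, both on the opposite strand and so written as TTTC, and Isg15 has 3 that overlap in a single run. Irgm2 and Igtp, which lie close together on chromosome 11, share an unbroken run of 38 bases and carry a GAS pattern just before an ISRE core. Irf1 has a GAS pattern alone, and Stat4 and Oas3 have 1 ISRE core each. Irf1 and Stat4 each had 2 windows, and the window not shown held neither pattern. The Stat4 stretch lies inside the gene, which runs from 51987106 to 52107189 on chr1. Of the other members lower in gonadal males, Ifng had a GAS pattern, Irf5 and Irf7 had neither pattern in the window, and Gbp8 had no promoter window. A match describes letters in the window and not a bound site.

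Gonadal males had lower levels of 6 of the 65 genes than gonadal females, and higher levels of none: Gbp8, Irf7, Irf5, Stat4, Ifng and Oas3 (limma over all features, Benjamini-Hochberg adjusted p under 0.05, the mean of the effects in XX and XY- livers). The 6 are 9.23% of the members, and the same fit called 3.75% of all features, 2.28% lower and 1.47% higher. At an unadjusted p under 0.05 the members passing were 23 of 65 (35.4%), against 17.8% of features. The members, as the lists below, were chosen with earlier results of these data known, so these shares are not an independent test. The difference of males minus females was negative for 47 members and positive for 18, with a median of -0.13, against 0.0075 over all features. The same 6 were called without XX 6 and XY- 12 (4.33% of features called) and without the library labelled XY- 30 (5.24%). The median over members was then -0.04 and -0.15. Leaving out XX 6 and XY- 12 was added after seeing the data. Both are gonadal females picked for their high mean over these genes, so calls without them are no added evidence. Without XX 6 and XY- 12, 17 of 65 (26.2%) had an unadjusted p under 0.05, against 18.6% of features, and 44 were negative, against 51.5% of features. In whole liver, fewer cells of a type and less RNA per cell cannot be told apart. Each of the 6 rests on 1 probe.

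**Figure D3:**
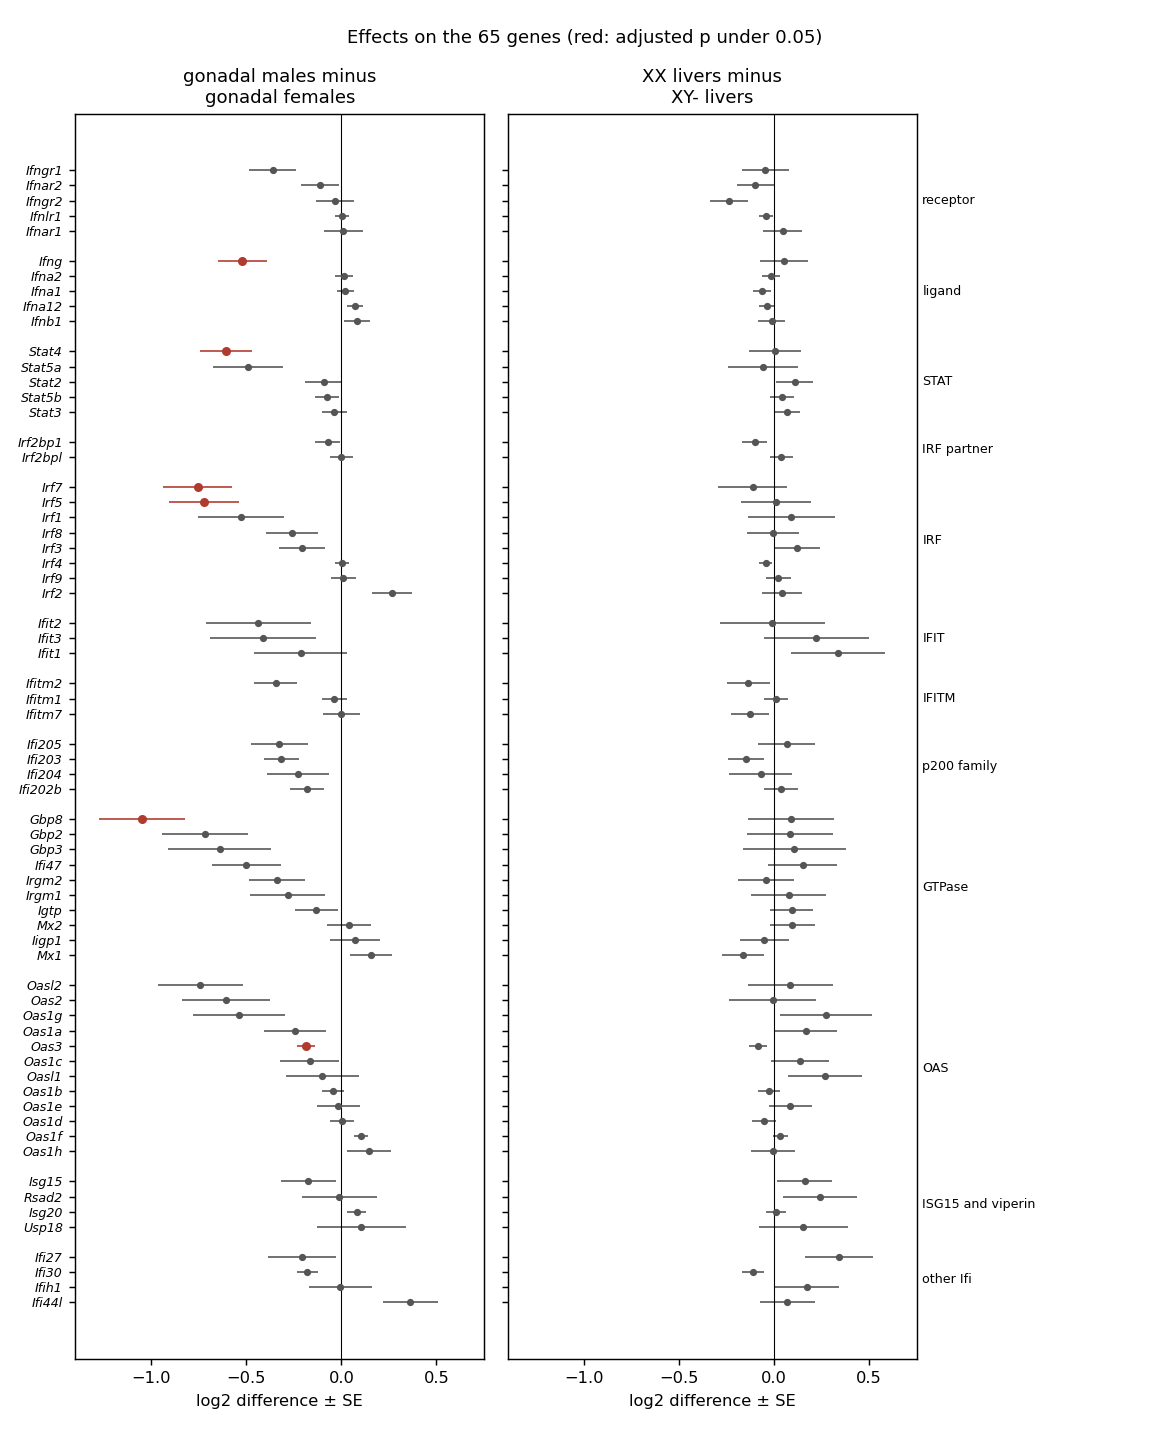
Log2 difference ± SE for each of the 65 genes, gonadal males minus gonadal females (left) and XX minus XY- livers (right), ordered by role (limma, 20 arrays). Red points had an adjusted p under 0.05: 6 on the left, all below 0, and none on the right.

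Among the ligands, only Ifng differed between the gonadal types by this test. In XX Sry its log2 ratio was -0.24, -0.36, -0.22, -0.16 and -0.20, and in XY-Sry -0.54, -0.22, -0.57, -0.35 and -0.67. In XX it was 0.22, 0.12, 0.02, 0.12 and 0.05, and in XY- 1.25, 0.02, 0.03, 0.01 and -0.15. All 10 gonadal males lay below all 10 gonadal females, though the gap was narrow: the highest male was -0.16 and the lowest female, XY- 22, was -0.15. Ifng was the only member without overlap, where 0.288% of all features had the males wholly lower. The difference was -0.52 ± 0.13 (log2, SE, n = 10 and 10, 1.44-fold, adjusted p = 0.0291), and -0.39 ± 0.06 (adjusted p = 0.000923) without XX 6 and XY- 12. The smaller p without these females, picked after seeing the data, is no added evidence. The 4 type I interferon genes measured, Ifna1, Ifna2, Ifna12 and Ifnb1, had differences of 0.02 to 0.08, none past the threshold. Probes of the Ifna family can share targets, as the genes are near copies of each other.

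None of the 5 receptor genes passed. Ifngr1, the ligand-binding chain for interferon gamma, ran from -0.38 to 0.29 in males (median -0.22) and from -0.25 to 0.999 in females (median 0.05), with a difference of -0.36 ± 0.12 (adjusted p = 0.114). The groups overlapped through XY-Sry 14 and XY- 30. Its partner Ifngr2 had a difference of -0.03, and the type I chains Ifnar1 and Ifnar2 had 0.01 and -0.11. Ifnar1 ran from -0.33 to 0.23 in males and -0.56 to 0.27 in females, and Ifnar2 from -0.30 to 0.16 and -0.27 to 0.70. The top values of Ifngr1, Ifngr2 and Ifnar2 were all on XY- 12. The interferon lambda receptor Ifnlr1 had 0.01.

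Stat4, which carries interleukin 12 signals that switch on Ifng in T and NK cells, was lower in gonadal males. Its log2 ratio in XX Sry was -0.24, -0.28, -0.39, -0.38 and -0.21, and in XY-Sry -0.25, -0.07, -0.62, -0.56 and -0.26. In XX it was 0.48, 0.45, 0.14, 0.26 and -0.02, and in XY- 1.25, 0.38, -0.04, 0.02 and -0.13. Every male was below 0, and only XY- 22 among the females fell inside the range of the males. The difference was -0.60 ± 0.14 (1.52-fold, adjusted p = 0.0201), and it passed with each of the 20 animals left out in turn. Stat5a, the target of growth hormone and interleukin 2 receptors, had -0.49 ± 0.18 (adjusted p = 0.153). Stat2, which acts in type I signalling, had -0.09 and ran from -0.23 to 0.20 in males and from -0.30 to 0.61 in females. Stat5b and Stat3 had -0.07 and -0.04.

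Of the 8 IRFs, Irf7 and Irf5 were lower in gonadal males. Irf7, the factor that amplifies type I interferon production, was -0.50, -0.50, -0.83, -1.06 and -0.11 in XX Sry and -0.30, -0.09, -0.05, -0.86 and -0.17 in XY-Sry. It was -0.30, 1.19, 0.11, 0.40 and 0.35 in XX, and 0.99, 0.03, -0.20, 0.02 and 0.50 in XY-. All males were below 0, and 2 females, XX 29 and XY- 24, were too. The difference was -0.75 ± 0.18 (1.69-fold, adjusted p = 0.0271).

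Irf5, which acts downstream of Toll-like receptors in macrophages and dendritic cells, was -0.58, -0.63, -0.54, -0.52 and 0.03 in XX Sry and -0.24, -0.03, -0.32, -0.84 and 0.08 in XY-Sry. It was -0.03, 0.82, 0.27, 0.41 and 0.83 in XX, and 1.46, -0.09, -0.13, 0.03 and 0.05 in XY-. The XX females were mostly high, while 4 of the 5 XY- females lay within the range of the males. The difference was -0.72 ± 0.18 (1.65-fold, adjusted p = 0.0356). It passed in 10 of the 20 fits that left out 1 animal, and without the 4 arrays of widest spread (XY- 12, XX 6, XY- 3 and XX 2) the adjusted p was 0.084 for Irf5 and 0.0901 for Irf7.

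The other IRFs did not pass. Irf1, a rapid target of interferon gamma, ran from -1.01 to 0.28 in males (median -0.43) and from -0.75 to 1.30 in females (median 0.04), a difference of -0.53 ± 0.23 (adjusted p = 0.224). Irf8 and Irf3 had -0.26 and -0.21. Irf2, which competes with IRF1 for its sites, had the opposite sign, at 0.27 ± 0.11 (adjusted p = 0.179). Irf9, the DNA-binding part of the type I complex, had 0.01, with males at -0.22 to 0.28 and females at -0.19 to 0.30, and Irf4 had 0.0034.

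**Figure D4:**
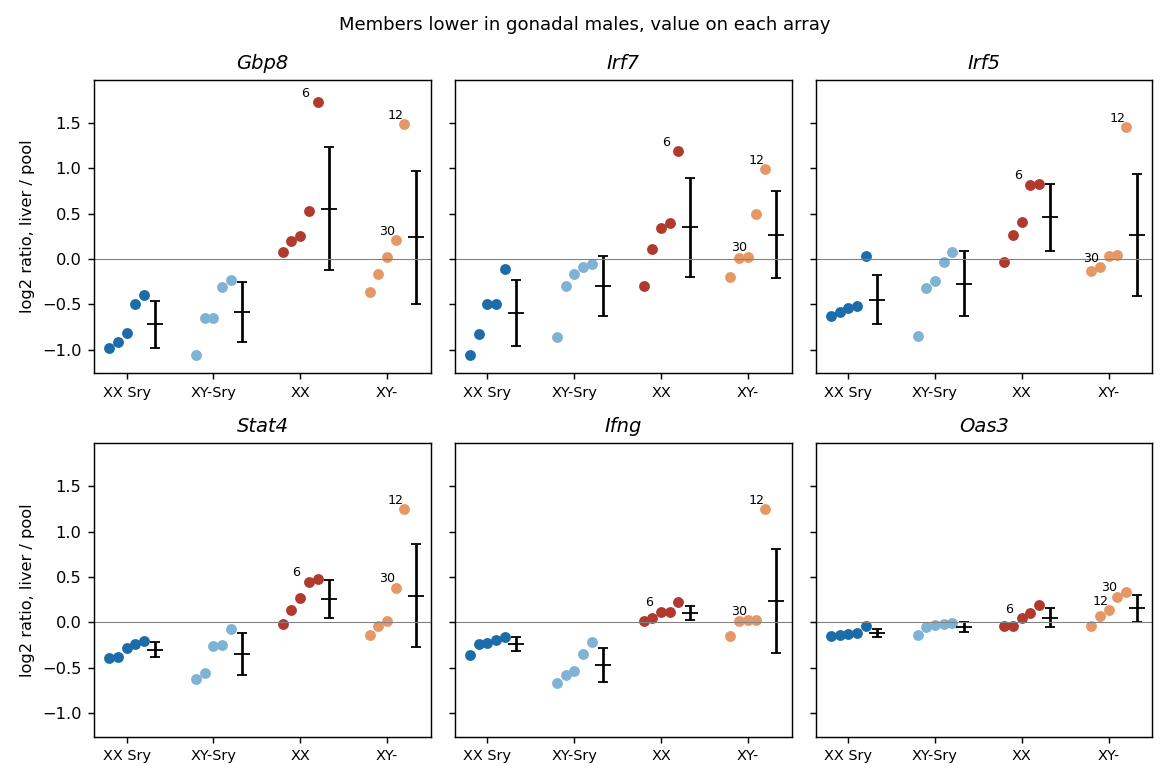
Log2 ratio of liver over pool on each of the 20 arrays for the 6 genes lower in gonadal males, with the group mean ± SD as a bar (5 arrays a group). Animal numbers 6, 12 and 30 are marked, and the males of Ifng lie wholly below the females.

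Gbp8 had the largest difference of the 65 genes. It belongs to the guanylate-binding proteins, GTPases induced mainly by interferon gamma. Its log2 ratio was -0.91, -0.40, -0.49, -0.98 and -0.81 in XX Sry and -0.65, -0.23, -1.06, -0.65 and -0.30 in XY-Sry. In XX it was 0.08, 1.73, 0.25, 0.20 and 0.53, and in XY- 1.49, 0.21, -0.36, -0.16 and 0.03. All males were below 0, and the ranges met only through XY- 24, at -0.36. The difference was -1.05 ± 0.22 (2.07-fold, adjusted p = 0.0141), and it passed with each of the 20 animals left out in turn. Without XX 6 and XY- 12 it was -0.75 ± 0.12 (adjusted p = 0.00146). That fit left out females picked after seeing the data, so its smaller p is no added evidence.

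The other 9 GTPase genes did not pass, though 4 of them had an unadjusted p under 0.05: Gbp2 at -0.72 ± 0.23 (adjusted p = 0.084), Gbp3 at -0.64 ± 0.27, the immunity-related GTPase Ifi47 at -0.50 ± 0.18 and Irgm2 at -0.34 ± 0.15. Irgm1 and Igtp had -0.28 and -0.13. The 2 Mx genes, dynamin-like antiviral GTPases induced by type I interferon, had 0.15 for Mx1 and 0.04 for Mx2. Mx1 ran from -0.47 to 0.61 in males and -0.38 to 0.27 in females, and Mx2 from -0.28 to 0.47 and from -0.20 to 0.85, the last on XX 6.

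Of the 12 OAS genes, Oas3 was lower in gonadal males by a small amount. It was -0.13, -0.14, -0.12, -0.15 and -0.03 in XX Sry and -0.03, -0.02, -0.0021, -0.14 and -0.05 in XY-Sry. It was -0.04, 0.05, -0.04, 0.11 and 0.20 in XX, and 0.14, 0.28, -0.04, 0.33 and 0.07 in XY-. The males were all below 0 and 3 of the 10 females were within their range. The difference was -0.19 ± 0.05 (1.14-fold, adjusted p = 0.0324). It passed in 11 of the 20 fits that left out 1 animal, and without the 4 arrays of widest spread the adjusted p was 0.134.

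Larger differences in the family had wider errors. Oasl2, an OAS-like protein, had -0.74 ± 0.22 (adjusted p = 0.0715), Oas2 -0.61 ± 0.23 (0.156) and Oas1g -0.54 ± 0.24 (0.246), and each had its highest value on XX 6 (1.83, 1.67 and 2.13). Oas1a, with 2 probes, had -0.24 and ran from -0.58 to 0.14 in males and from -0.26 to 1.48 in females, the last again on XX 6. Oas1f, at 0.10 ± 0.04 (adjusted p = 0.139), had the opposite sign. The Oas1 genes are near copies, and their probes may not separate them.

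The IFIT genes, Isg15, Rsad2 and Usp18 did not pass. Ifit1 ran from -0.77 to 0.39 in males and from -0.82 to 1.89 in females, with a difference of -0.21 ± 0.25 (adjusted p = 0.745). Ifit3 ran from -1.14 to 0.25 and from -0.82 to 1.98, with -0.41 ± 0.28 (adjusted p = 0.496), and Ifit2 had -0.44. The median over these 3 was -0.41, and -0.14 without XX 6 and XY- 12. Isg15 ran from -0.52 to 0.17 in males and -0.39 to 1.13 in females, with -0.17 ± 0.14. Rsad2 (viperin) and Usp18 had differences of -0.01 ± 0.20 and 0.10 ± 0.23, and ran from -1.08 to 1.03 and from -1.32 to 1.08 in females and from -0.36 to 0.45 and from -0.92 to 0.48 in males. Both were highest on XX 6 and had low values on XX 2 (-0.83 and -1.32) and XY- 3 (-1.08 and -0.93). The signs for Ifnar1, Irf9, Rsad2, Usp18, Mx2, Ifngr2, Ifnar2 and Stat2 turned in at least 1 alternative, and none of these genes passed in either.

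The remaining families were mixed. The 4 p200 genes, sensors and regulators in the nucleus, were all negative (-0.33 to -0.18), with Ifi203 at -0.31 ± 0.09 (adjusted p = 0.0694). Its probes differed in size, at -0.53 and -0.10. Without XX 6 and XY- 12 the 4 p200 genes were still negative but smaller, at -0.22 to -0.05. Ifitm2, a membrane protein that hinders viral entry, had -0.35 ± 0.11 (adjusted p = 0.0968), while Ifitm1 and Ifitm7 had -0.04 and -0.0001. Ifi30, the thiol reductase of antigen processing, had -0.18 ± 0.06 (adjusted p = 0.0905). Ifi44l had the highest value of all members, at 0.36 ± 0.14 (adjusted p = 0.185), with its highest ratios on XX Sry 9 (0.75) and XY-Sry 19 (0.88). Ifih1, the RNA sensor MDA5, had -0.0050. The IRF2-binding proteins Irf2bp1 and Irf2bpl had -0.07 and -0.0002.

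The gonadal effect was also taken separately in each chromosome complement, which share no array. Among the XY- females, here and in the interaction below, is the library labelled XY- 30, whose Y-linked values were as in the XX livers. In XX livers (XX Sry minus XX) 0 members passed by limma, with 14 at an unadjusted p under 0.05, where 0.645% of features passed. In XY- livers (XY-Sry minus XY-) 0 passed and 9 had an unadjusted p under 0.05, where 0.158% of features passed. At an unadjusted p under 0.05 these counts are 21.5% and 13.8% of the members, against 12.1% and 9.29% of features. Of the 65 members, 38 (58.5%) were lower in males in both complements and 9 (13.8%) were higher in both, against 27.2% and 33.7% of all features. Without XX 6 and XY- 12 these were 33 (50.8%) and 14 (21.5%), against 30.4% and 30.4% of features. Gbp8 had -1.28 ± 0.32 in XX livers and -0.82 ± 0.32 in XY- livers. Stat4 had -0.56 ± 0.19 and -0.64 ± 0.19, and Ifng -0.34 ± 0.18 and -0.70 ± 0.18. Irf7 had -0.95 and -0.56, Irf5 -0.91 and -0.53, and Oas3 -0.17 and -0.21.

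Males lay wholly below females in XX livers for Gbp8, Ifi47, Stat4, Ifng and Ifngr1, where 2.85% of features did, and in XY- livers for Ifng, where 0.868% did. The interaction, which tests whether the gonadal effect differs between the complements, called 0 members and 0 features by limma, with 0 members and 556 features (2.58%) at an unadjusted p under 0.05. The smallest p among members was 0.175, for Ifng (0.36 ± 0.26). The calls within a complement depended on single arrays: without XY- 12 there were 5 members called in XX livers and 1 in XY- livers. The features called then went from 139 to 462 in XX livers and from 34 to 51 in XY- livers. XY- 12 is not among the XX livers, so leaving it out changed the calls there only through the shared error estimate.

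Between XX and XY- livers 0 of the 65 genes passed by limma. At an unadjusted p under 0.05, 1 member passed (1.54%), against 5.06% of features, and 6 features (0.0278%) passed after adjustment. The median difference of XX minus XY- was 0.03, against -0.0090 over all features, and it was -0.01 without XX 6 and 0.0063 without XX 6 and XY- 12. The member with the smallest p was Ifngr2, at -0.24 ± 0.10 (adjusted p = 0.914), with log2 ratios from -0.55 to 0.13 in XX livers (median -0.20) and from -0.26 to 0.54 in XY- livers (median 0.01). Ifi30 had -0.11 ± 0.06, from -0.20 to 0.13 against -0.12 to 0.51. Ifi27, a mitochondrial protein induced by interferon alpha, had 0.34 ± 0.18, from -0.47 to 1.58 against -0.57 to 0.13, with the top value on XX 6. Oas3 had -0.08 ± 0.05, and Ifng, Stat4 and Gbp8 had 0.05, 0.01 and 0.09, the last 2 with a sign that turned in some alternatives. In gonadal males alone 0 members passed, with 0 at an unadjusted p under 0.05 (1 feature passed, 0.00464%, and 2.06% had such a p). In gonadal females alone 0 passed, with 1 at an unadjusted p under 0.05 (0 features passed, and 6.08% had such a p). The library labelled XY- 30 was counted as XY- here, though its Y-linked values were as in the XX livers. Without that library, 0 members and 13 features passed after adjustment between XX and XY- livers.

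Other genes of the pathway, and the cell markers below, were taken from lists. The lists were chosen with earlier results of these data known, so their counts describe the lists and are not an independent test. Of 10 genes of receptor signalling, 2 were lower in gonadal males and 0 higher: the feedback inhibitor Socs1 (-0.55 ± 0.14, adjusted p = 0.036) and the phosphatase Ptpn6 (-0.28 ± 0.07, adjusted p = 0.036). Of the others, Ptpn2 had 0.22 and Jak2 -0.20. Of 10 genes that sense nucleic acids, 0 passed by limma and 2 had an unadjusted p under 0.05, and the median was 0.0048. Of 30 other genes induced by type I interferon, 2 were lower, Ly6e (-0.70 ± 0.18) and Sp100 (-0.46 ± 0.10), 0 were higher, and the median was -0.09.

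Of 24 other genes induced by interferon gamma, 11 were lower in gonadal males and 0 higher (background 2.28% and 1.47%), with a median of -0.37. They were the chemokines Cxcl9 (-2.10 ± 0.31, adjusted p = 0.000922) and Cxcl10 (-0.999 ± 0.224), the ubiquitin-like Ubd (-1.75 ± 0.37), the GTPase Tgtp1 (-1.53 ± 0.36), the class II chains H2-Eb1 (-1.40 ± 0.28) and H2-Aa (-1.04 ± 0.20), the class I light chain B2m (-0.38 ± 0.10), the immunoproteasome subunits Psmb8 (-0.77 ± 0.15), Psmb9 (-0.79 ± 0.15) and Psmb10 (-0.66 ± 0.13) and the proteasome activator Psme1 (-0.34 ± 0.08). Cxcl9, which draws T cells into tissue, was -1.84, -1.75, -1.57, -2.03 and -1.54 in XX Sry and -1.74, -1.34, -2.002, -1.60 and -1.64 in XY-Sry. It was -0.08, 0.91, 0.16, 0.42 and 0.48 in XX and 2.88, -0.07, -0.52, -0.04 and -0.18 in XY-. The males all lay far below the females, and XY- 12 lay far above the rest. The mean over the 24 genes was -0.50 to -0.27 in males and -0.17 to 0.91 in females, with no overlap. Without XX 6 and XY- 12, 10 were lower and the median was -0.23. As the list was chosen with earlier results known, its count beside the background is a description and not a test.

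Some markers of lymphocytes and macrophages were also lower in gonadal males. Of 19 genes of T and NK lymphocytes, 7 were lower and 0 higher: Il2rb (-1.70 ± 0.16), Cd2 (-1.45 ± 0.18), Cd3g (-1.11 ± 0.14), Ccl5 (-1.02 ± 0.27), Klrb1c (-0.57 ± 0.11), Cd3d (-0.46 ± 0.06) and Cd8a (-0.18 ± 0.05). The list's mean was -0.31 to -0.10 in males and -0.04 to 0.66 in females, with no overlap, and without XX 6 and XY- 12 there were 6 lower, 1 higher and a highest female mean of 0.15. Of 15 Kupffer cell and macrophage genes, 6 were lower, Cd5l, Csf1r, C1qa, C1qb, C1qc and Clec4f (-1.18 to -0.63), with list means of -0.86 to 0.38 in males and -0.28 to 1.59 in females. Dendritic cells had 1 of 5 lower (Itgax, -0.58 ± 0.15) and B cells 2 of 7 (Cd22, -0.97 ± 0.17, and Cd79b, -0.43 ± 0.08). By sign, the lists differed. Without XX 6 and XY- 12, 13 of 19 lymphocyte genes were negative (median -0.10), and 14 of 15 Kupffer cell and macrophage genes (-0.51). In dendritic cells 3 of 5 were (-0.07) and in B cells 6 of 7 (-0.04), against 51.5% of features. Without the library labelled XY- 30, 3 of 7 B cell genes were negative (median 0.01), against 47.2% of features. Of 9 neutrophil, 6 sinusoidal endothelial and 9 hepatocyte genes 0 passed by limma, with 5, 0 and 1 at an unadjusted p under 0.05, and the hepatocyte mean was -0.21 to 0.11 in males and -0.16 to 0.25 in females. The neutrophil mean was -1.44 to -1.14 in males and -1.14 to 2.15 in females. Without XX 6 and XY- 12 the females were at -1.14 to -0.76, and 1 neutrophil gene passed, lower in males. The part of lymphocyte, macrophage and neutrophil number in the lower values of Ifng, Stat4, Irf5, Irf7, Gbp8 and Oas3 was not tested.

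**Figure D5:**
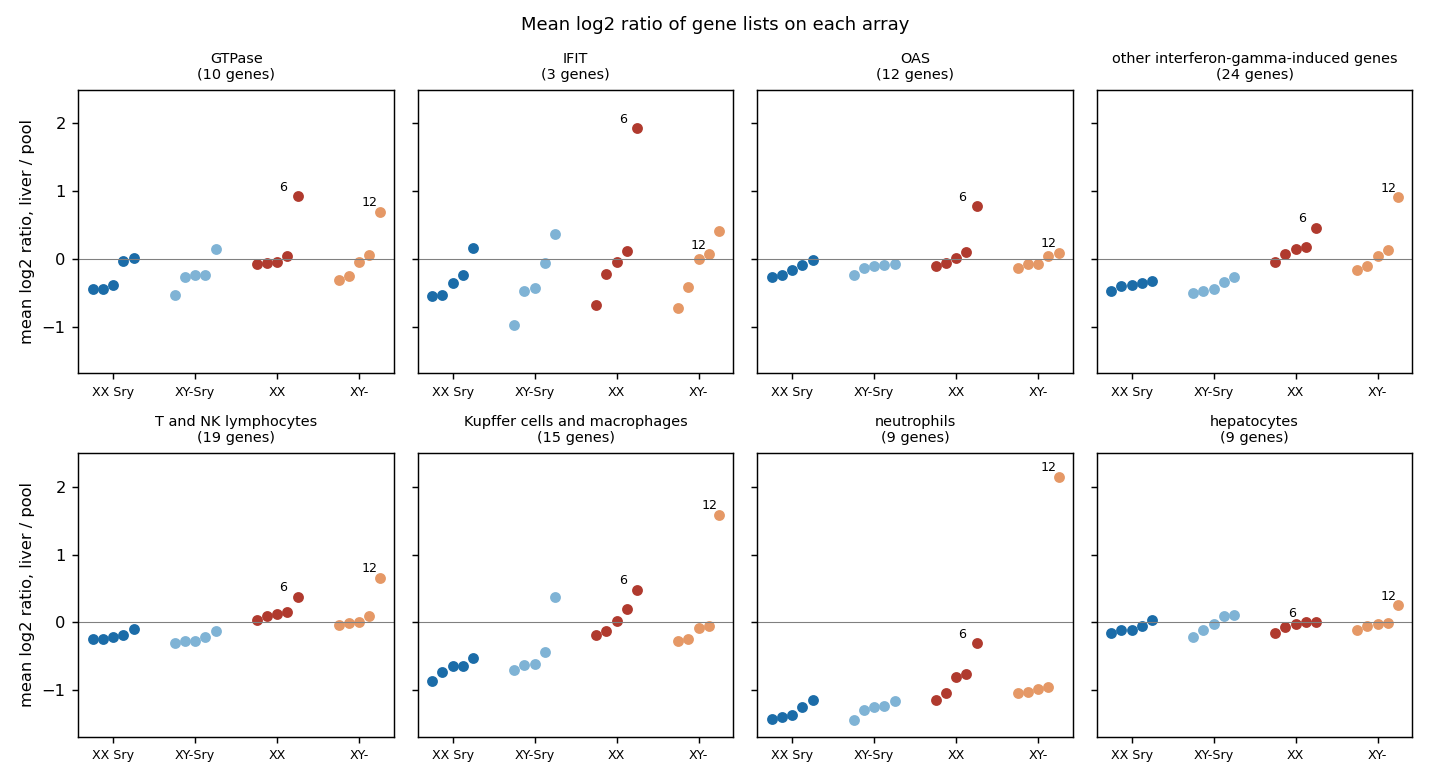
Mean log2 ratio of liver over pool on each array (points, 5 a group) for 3 of the families (GTPase, IFIT and OAS), the other genes induced by interferon gamma and 4 marker lists. Males and females do not overlap for the interferon gamma genes and for T and NK lymphocytes, and XY- 12 reaches 2.15 for neutrophils.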

How the data were processed

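The authors' deposited values were log ratios per probe on 20 two-colour arrays, one column a liver. Their base was taken as log10 and their direction as liver over pool from the values (limit at 2, Y-linked genes) and from the dyes per the labels; the scanner, background correction and dye normalization are not given in the sources used here. Probes (23574) were named through the platform annotation (13713 listed, 48 with several genes, left unnamed) and probes of 1 symbol averaged, giving 21556 features; ratios were turned into log2. limma 3.58.1 in R 4.3.3 (lmFit, contrasts, eBayes) was fitted to all 20 arrays with 4 group means and no covariates, with Benjamini-Hochberg adjustment over all features and a threshold of 0.05. The script was tested on simulated data. Intensities were not used here, so signal over background is unknown, and the number of arrays limits the precision.

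Genes given with values array by array or by range were those past the threshold in any of 7 comparisons, the 4 members with the smallest p for an effect where fewer passed, and a fixed set of core pathway genes; from the lists, the genes past the threshold and up to 2 others. The members and lists were chosen with earlier results of these data known. Alternatives were quantile normalization, centring, array weights, robust eBayes, single probes, current symbols, fits of 10 arrays, and leaving out each animal, the library labelled XY- 30, the 4 arrays of widest spread and, added after seeing the data, XX 6 with XY- 12. Promoter sequences are RefSeq, GRCm38.p6. No sequence search was made beyond them.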

Additional observations from a re-analysis of the deposited data

Results flagged for a closer look

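Among the 23 genes given with their values, 10 of 92 groups of 5 had an array set apart from the other 4 by Dixon's test (chance gives about 1 in 20 for normally distributed values). On XX 6 these were Gbp8 at 1.73, Mx2 at 0.85, Isg15 at 1.13 and Oas1a at 1.48. On XY- 12 they were Irf5 at 1.46, Ifng at 1.25 and Ifngr1 at 0.999. On XX Sry 32 they were Irf5 at 0.031 and Oas3 at -0.034, above the other XX Sry arrays, and Ifnar1 at -0.32, below them. Over all 65 genes 29 of 260 groups had such an array, 11 of them on XX 6, 7 on XY- 12, 5 on XX Sry 32 and 3 on XX Sry 9. The share over all features was not counted, and genes that are high together on an array are not separate flags.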

How the results depend on the processing

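The gonadal effect called 6 members as reported (808 features) and 11 after quantile normalization (1190 features), which added Gbp2, Ifi47, Ifitm2, Ifi30 and Ifi203. Array weights gave 9 (1704 features), adding Gbp2, Oasl2 and Ifngr1, and centring, robust eBayes, single probes and current symbols gave 6. Without the 4 arrays of widest spread there were 4 (830 features), with Gbp8, Stat4 and Ifng among them. With 1 animal left out there were 2 to 7, with 2 without XX Sry 31 or XY-Sry 19 (402 and 391 features) and 3 without XX Sry 18 (479 features); Gbp8 and Stat4 passed in 20 of 20 such fits, Irf7 in 18, Ifng in 17, Oas3 in 11 and Irf5 in 10. The median over members was -0.17 to -0.05, the last without XX 6. In XX livers, where 0 members and 139 features were called as reported, there were 2 members without the 4 widest arrays (273 features), 4 after quantile normalization (405), 4 with array weights (580), 4 without XX 6 and XY- 12 (404), 3 in the fit of 10 arrays (385), and 0 to 5 with 1 animal left out, the 5 without XY- 12 (462). In XY- livers, with 0 members and 34 features as reported, there were 1 after quantile normalization (56 features), 1 without XX 6 and XY- 12 (57), and 0 to 1 with 1 animal left out, the 1 without XY- 12 (51). The other comparisons stayed at 0 members in every alternative run, and no called value changed sign. No paired analysis was possible because the animal numbers differ between all groups. The log ratios carry no signal level, so genes near background could not be set apart.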
